A study of Mus musculus with 6 samples.

Results

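The heat shock chaperone genes described here are 10 genes whose products hold, fold or refold other proteins. They are Hsp90aa1, Hsp90ab1, Hspa8, Hspa1a, Hspa1b, Hsph1, Dnajb1, Dnaja1, Hspd1 and Hspe1. They were chosen by name, with earlier results of these data known, and all 10 were among the 13932 rows of the gene table. They also held 102 of the 151811 rows of the splice junction table. Hspa1a has no row there, and the only row of Hspa1b is a gap of 33 nt without splice site bases, so splicing was described for 8 genes.

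The RNA came from common myeloid progenitors, the bone marrow cells from which granulocytes, monocytes, red cells and platelets arise, sorted as lineage negative, c-Kit+, Sca-1-, CD34+ and Fcgamma-. The cells were of donor origin, from mice transplanted with marrow that carried the rtTA transactivator and a U2AF1 transgene, either with the S34F substitution or wild type (WT). Doxycycline chow, which switches on such a transgene through rtTA, was given to both genotypes for 5 days, after more than 6 weeks of engraftment. Each genotype has 3 libraries, and each library is a pool of marrow from 4 to 5 mice, so the replicates are separate pools. Strain, age and the promoter behind rtTA are not stated in the labels, and no library without an induced transgene was analysed here.

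U2AF1 recognises the AG that ends an intron, as the smaller partner of the U2AF heterodimer, and S34F is a recurrent mutation in myelodysplastic syndromes. Chaperones of the Hsp90, Hsp70 and J protein families work as a cycle in the cytosol. J proteins bring clients to Hsp70 and start its ATP hydrolysis, a nucleotide exchange factor of the Hsp110 family resets it, and Hsp90 takes over part of the clients, kinases and steroid receptors among them. Hspd1 and Hspe1 encode the barrel and the lid of the folding chamber in the mitochondrial matrix. Under heat or other protein damage the transcription factor HSF1 binds heat shock elements, inverted repeats of the letters GAA, in front of many of these genes.

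Promoter windows from RefSeq (GRCm38.p6, 250 bases before to 50 after each start site) were at hand for 7 of the genes, 12 windows in all. A 2-unit heat shock element, GAANNTTC or TTCNNGAA, each of which reads the same on both strands, was found in 7 of these windows and in 6 of the 7 genes, Dnajb1 being the one without. It occurred in 15.1% of all 32851 windows in the table. Overlapping elements that make 3 units in a row were found in Hspd1, Hspe1 and Hsph1 and in 0.603% of all windows. Hspe1 and Hspd1 are transcribed away from each other, and their annotated ends overlap by 112 bases. A single cluster of elements lies in front of the Hspe1 start site and of 1 of the 2 Hspd1 start sites, and the window of the other Hspd1 start site holds none. The upstream part of the Hspe1 and Hspa1a windows is shown because Hspe1 shares its cluster with that Hspd1 start site and because Hspa1a and Hspa1b moved together across libraries. Capitals mark the elements, which lie 89 to 79 bases before the start site of Hspe1 and 104 bases before that of Hspa1a (first base of each element).
Hspe1 (chr1:55087898-55088147, GRCm38.p6, plus strand): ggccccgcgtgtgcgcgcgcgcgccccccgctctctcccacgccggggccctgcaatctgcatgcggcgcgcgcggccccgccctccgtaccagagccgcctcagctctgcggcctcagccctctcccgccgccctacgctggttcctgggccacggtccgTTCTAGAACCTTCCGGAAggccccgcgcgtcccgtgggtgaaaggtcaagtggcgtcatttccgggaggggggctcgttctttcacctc
Hspa1a (chr17:34972157-34972406, GRCm38.p6, minus strand): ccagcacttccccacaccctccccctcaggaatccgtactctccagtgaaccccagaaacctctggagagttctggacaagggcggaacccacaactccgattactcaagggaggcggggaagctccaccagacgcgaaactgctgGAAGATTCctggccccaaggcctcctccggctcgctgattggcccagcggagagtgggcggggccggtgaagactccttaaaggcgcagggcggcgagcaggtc

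The introns on which the splicing results turn are shown by their acceptors in mm9, each on the plus strand, as 17 intron bases, the last 3 intron bases in capitals, and the first 3 exon bases. The base just before the AG is position -3 of the intron. It is C at the Dnaja1 exon that can be skipped, at the usual Hspe1 acceptor and at the 2 Hspa8 acceptors. It is T at the acceptors that the minor forms of Dnaja1 and Hspe1 use. That Dnaja1 acceptor also serves the usual form with the exon, with 4882 reads over the 6 libraries, beside 142 reads that skip the exon.
Dnaja1, exon that can be skipped (chr4:40670986-40671008): gatgtccttttctgaaaCAGttt
Dnaja1, next exon (chr4:40673118-40673140): tgagcagtgttttattcTAGgta
Hspe1, usual acceptor of the last intron (chr1:55147894-55147916): aatagtctctttattcaCAGgat
Hspe1, second acceptor of that intron (chr1:55147911-55147933): caggattatttcttattTAGaga
Hspa8, usual acceptor of the last intron (chr9:40612995-40613017): tttgatttcttttttctCAGact
Hspa8, second acceptor of that intron (chr9:40613002-40613024): tcttttttctcagactgCAGaga

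The libraries held 46827909 to 51862032 gene counts in S34F and 54727541 to 94562984 in WT, so every WT library was deeper. In replicate 1 of each genotype the Y-linked gene Ddx3y had 5580 or 5714 counts and Xist at most 5, while the other libraries had 0 counts of Ddx3y and at least 67264 of Xist. Values without both replicate 1 libraries, 2 against 2, are therefore given beside the levels of the 10 genes and the Dnaja1 splicing results, and the replicate 1 libraries alone, 1 against 1, allow no test. Of the genes behind the sort, Kit (92.4 to 209 CPM, counts scaled to library size with TMM factors) and Cd34 (695 to 904 CPM) were high in every library and Ly6a, which encodes Sca-1, was at most 1.84 CPM. The Fc gamma receptor genes Fcgr3 (33.4 to 111 CPM) and Fcgr2b (35.4 to 51.3 CPM) were present in every library, although the sort is named as Fcgamma-. Of 11 dendritic cell markers, 10 had lower S34F levels at an unadjusted edgeR p under 0.05, beside 9.1% of all genes in either direction. The edgeR adjusted p was 0.169 or higher for each of them. The summed level of the 11 markers was 327 to 492 CPM in S34F and 627 to 834 CPM in WT. DESeq2 called 6 of the 11 lower, and also Klrk1 of the T and NK cell markers (1.14 to 1.92 CPM in S34F and 6.04 to 7.61 in WT), beside 0.69% of all genes in either direction. Of 12 erythroid markers, 4 were lower at an unadjusted edgeR p under 0.05, beside the same 9.1%. A log2 fold change above 0 was found for 1 of them, beside 49.1% of all genes. Their median was -0.64, and their summed level was 395 to 428 CPM in S34F and 402 to 431 CPM in WT. The part of these markers in the chaperone values was not tested. In bulk RNA, fewer cells that express a gene and less RNA per cell cannot be told apart.

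None of the 10 chaperone genes passed edgeR's quasi-likelihood test between genotypes, adjusted over 13905 genes, and the same test called 0% of all genes. DESeq2 called 0.69% of all genes and no chaperone gene. At an unadjusted edgeR p under 0.05 there were 3 of the 10 genes (Dnaja1, Hspd1 and Hspa1a), all with higher S34F levels, beside 9.1% of all genes in either direction and 4.39% with higher S34F levels. The median log2 fold change of the 10 genes was 0.17, beside -0.01 over all genes tested. Of the 10 values, 9 were above 0, beside 49.1% of all genes. The 10 genes were chosen with earlier results of these data known, so these shares are no test of the list. Without both replicate 1 libraries the values of Hspa8, Hsph1, Dnajb1 and Hspe1 were below 0. The median of the 10 genes fell to 0.06 in that fit. Together the 10 genes took 0.649% to 0.770% of the counts in S34F libraries and 0.559% to 0.691% in WT libraries, ranges that overlap.

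**Figure D1:**
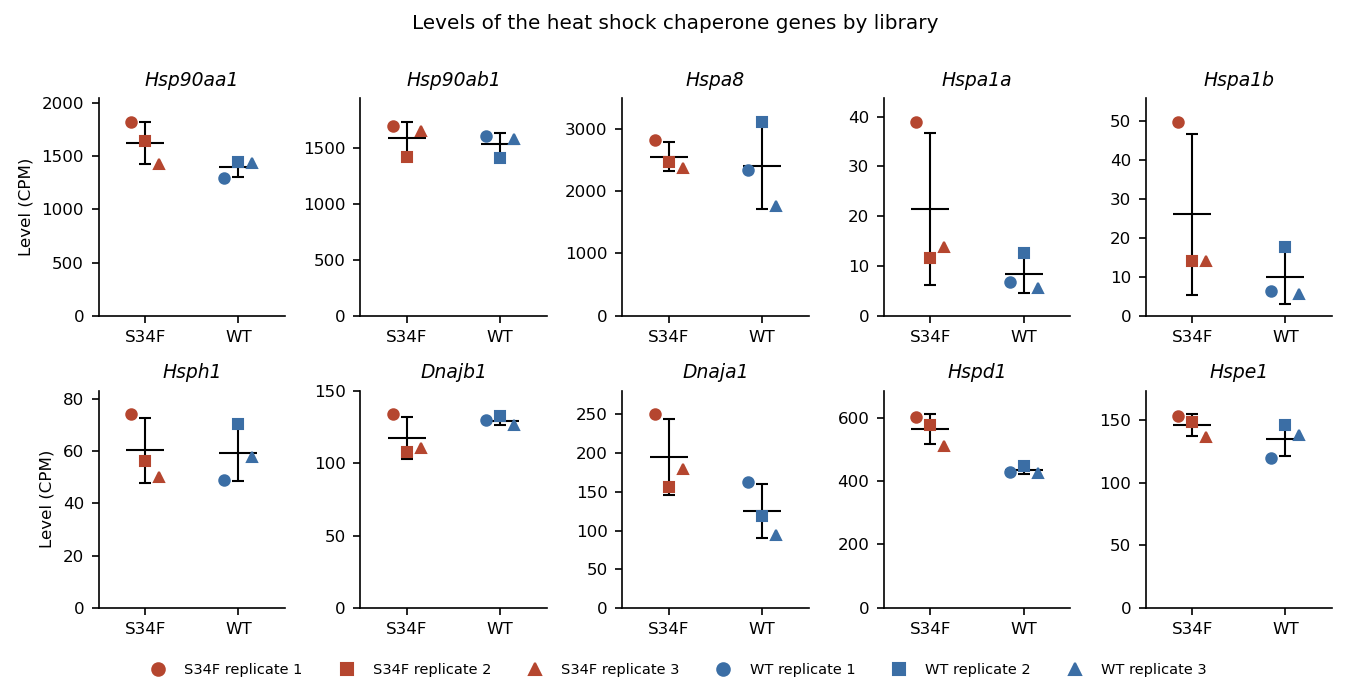
Level of each gene in CPM in the 6 libraries (points; the shape gives the replicate), with the mean and SD per genotype (horizontal line and bar, n = 3). The genotypes are apart only for Hspd1, where the S34F libraries sit at 510 to 604 CPM and the WT libraries at 424 to 447 CPM.

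Levels were set against each other only per length, as CPM per kb of annotated exon, averaged over the 6 libraries. Hspa8, the constitutive Hsp70, stood first at 597 ± 112 (SD, n = 6), followed by Hsp90ab1 at 520 ± 39.2 and Hsp90aa1 at 385 ± 47.7. The ranges of Hspa8 and Hsp90ab1 overlapped, so their order is not fixed by this measure. Hspa8 was below Hsp90ab1 only in WT replicate 3 (423 against 527). In the authors' deposited FPKM, Hspa8 (444 to 830) was above Hsp90ab1 (222 to 405) in every library. By CPM per kb, Hsp90ab1 was above Hsp90aa1 in every library. Hspd1 (189 ± 29.5), Hspe1 (95.4 ± 8.17), Dnajb1 (50.03 ± 4.66) and Dnaja1 (18.6 ± 6.27) came next, each with a range apart from that of its neighbours. In the authors' deposited FPKM the order of these 4 differed: Hspe1 (105 to 147) was above Hspd1 (83.5 to 101) in every library, and Dnaja1 (24.7 to 46.7) overlapped Dnajb1 (19.8 to 38.5). At the low end, Hsph1 (8.47 ± 1.48), Hspa1b (6.40 ± 5.85) and Hspa1a (5.08 ± 4.19) overlapped. The union of annotated exons used is 8629 bases for Dnaja1 and 1474 bases for Hspe1. For Hspa8 it is 4156 bases, in a gene annotated from 40609067 to 40613283 on chromosome 9. Exons that these cells do not use lower a level per length.

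Hspd1 and Hspe1 form the mitochondrial chaperonin. Hspd1, the barrel subunit, had 604, 577 and 510 CPM in S34F replicates 1 to 3 and 429, 447 and 424 CPM in WT replicates 1 to 3. Every S34F library was above every WT library. The means were 564 ± 48.1 and 433 ± 11.9 CPM (SD, n = 3 each; exact permutation p = 0.1, the smallest that 3 against 3 allows). The log2 fold change of Hspd1 was 0.38 with a standard error of 0.10, and it was not called by edgeR (unadjusted p = 0.00569, adjusted p = 0.538) or by DESeq2 (adjusted p = 0.0764). In the authors' deposited table the log2 fold change of Hspd1 is 0.35 with an adjusted p of 0.0803, and 0.63% of its genes are under 0.05. In the authors' deposited FPKM the Hspd1 ranges overlapped (83.7 to 101 in S34F and 83.5 to 101 in WT). In CPM, ranges that do not overlap were found for 1 of the 10 genes and for 15.6% of all genes, and with S34F above WT for 7.16% of all genes. Hspe1, the lid subunit, had 154, 149 and 136 CPM in S34F and 120, 147 and 139 CPM in WT, with the genotypes mixed. Its log2 fold change was 0.12 with a standard error of 0.11 (edgeR adjusted p = 0.711). Without both replicate 1 libraries the values were 0.32 ± 0.10 (SE) for Hspd1 and -0.00063 ± 0.10 for Hspe1 (edgeR adjusted p = 0.148 and 0.998).

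Among the J proteins, which load clients onto Hsp70, Dnaja1 and Dnajb1 lay on opposite sides of 0. Dnaja1, a type I J protein with a farnesylated end, had 251, 156 and 179 CPM in S34F and 162, 119 and 94.0 CPM in WT. WT replicate 1 lay above S34F replicate 2, and apart from that pair the S34F libraries were higher. The log2 fold change was 0.64 with a standard error of 0.24 (edgeR unadjusted p = 0.0276, adjusted p = 0.538; DESeq2 adjusted p = 0.263). Without both replicate 1 libraries Dnaja1 had 0.66 ± 0.14 (SE), with an edgeR adjusted p of 0.0585, in a fit that called 599 genes. Dnajb1, a type II J protein and the classical Hsp40 of the heat shock response, had 134, 108 and 111 CPM in S34F and 130, 133 and 127 CPM in WT. The WT libraries were close together and S34F replicate 1 was above all of them. The log2 fold change of Dnajb1 was -0.14 with a standard error of 0.11 (edgeR adjusted p = 0.657), and -0.25 ± 0.09 without both replicate 1 libraries (edgeR adjusted p = 0.189).

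Hspa1a and Hspa1b, the stress-inducible Hsp70 genes, were the most variable of the 10. They lie 9961 bases apart on chromosome 17 (mm9), their promoter windows are 98.7% identical over 300 bases, and 47.8% and 49.9% of the 100-base words of their transcripts occur in both, so that the counts of each are uncertain. Hspa1a had 39.0, 11.6 and 13.7 CPM in S34F and 6.69, 12.5 and 5.61 CPM in WT. Hspa1b had 49.95, 14.1 and 14.1 CPM in S34F and 6.45, 17.6 and 5.45 CPM in WT. S34F replicate 1 was the highest library for both genes, WT replicate 2 lay between the other S34F libraries for Hspa1a and above them for Hspa1b, and the lowest library of all was WT replicate 3. The highest library exceeded the lowest by 6.95-fold for Hspa1a and 9.17-fold for Hspa1b, against at most 2.67-fold for the other genes. The log2 fold changes were 1.37 ± 0.51 (SE) and 1.40 ± 0.63, with edgeR adjusted p-values of 0.538 and 0.552. They were 0.61 and 0.52 without S34F replicate 1, 1.80 and 2.13 without WT replicate 2, and 0.48 and 0.29 without both replicate 1 libraries, so the size of the difference depends on which library is left out. The summed level of 22 immediate early genes, which respond to handling and stimulation within minutes, was 3098 CPM in S34F replicate 1, beside 1752 and 2551 in the other S34F libraries and 2630 to 3586 in WT. Its part in the Hspa1a and Hspa1b values was not tested.

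The remaining genes of the Hsp70 system, Hspa8 and Hsph1, had ranges that overlapped between genotypes. Hspa8 had 2825, 2466 and 2381 CPM in S34F and 2339, 3123 and 1757 CPM in WT. The highest and the lowest library were both WT, and all S34F libraries lay between them. The log2 fold change of Hspa8 was 0.09 ± 0.20 (SE; edgeR adjusted p = 0.884), -0.09 without WT replicate 3, and -0.0095 ± 0.24 without both replicate 1 libraries. Hsph1, the Hsp110 that exchanges nucleotide on Hsp70, had 74.2, 56.3 and 50.2 CPM in S34F and 49.1, 70.4 and 57.8 CPM in WT. Its log2 fold change was 0.03 ± 0.18 (edgeR adjusted p = 0.963), and it was -0.27 ± 0.13 without both replicate 1 libraries (adjusted p = 0.303). Within the S34F group, replicate 1 was the highest library for each of the 10 genes.

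The Hsp90 pair was high in every library, and Hsp90aa1 varied more than Hsp90ab1, with its highest library 1.41-fold above its lowest. Hsp90aa1, the inducible cytosolic Hsp90, had 1821, 1643 and 1426 CPM in S34F and 1295, 1450 and 1442 CPM in WT, with S34F replicate 3 inside the WT range. The log2 fold change was 0.22 ± 0.12 (SE; edgeR adjusted p = 0.578), and 0.09 ± 0.10 without both replicate 1 libraries. Hsp90ab1, the constitutive form, had 1691, 1421 and 1653 CPM in S34F and 1604, 1413 and 1580 CPM in WT. This was the smallest spread of the 10 genes, with the highest library 1.20-fold above the lowest, and a log2 fold change of 0.05 ± 0.11 (edgeR adjusted p = 0.877), or 0.04 ± 0.11 without both replicate 1 libraries.

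**Figure D2:**
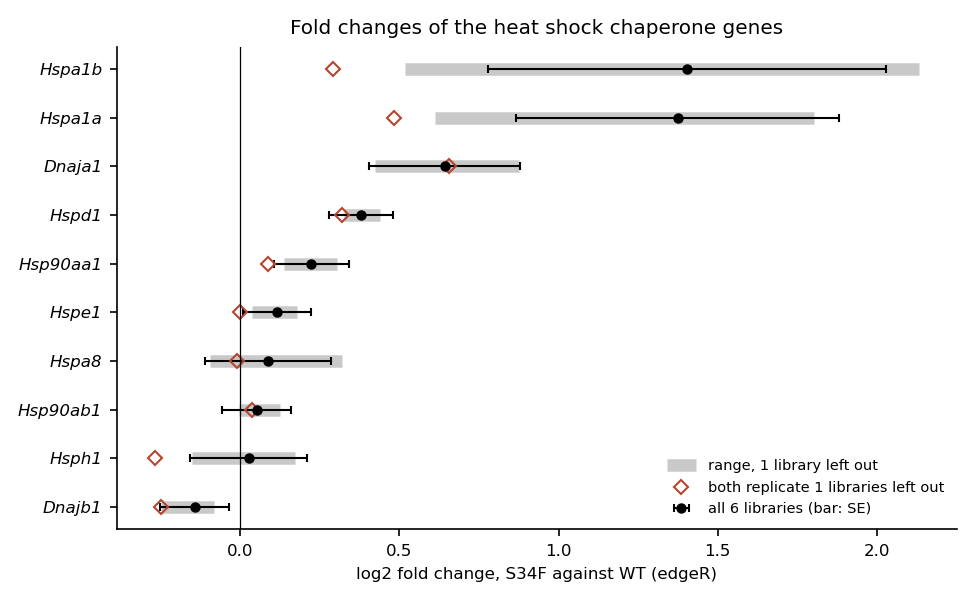
Log2 fold change of each gene, S34F against WT, from edgeR on all 6 libraries (black points; bars are the SE), the range when 1 library is left out (grey), and the value without both replicate 1 libraries (open diamonds). Dnaja1 and Hspd1 keep values of 0.66 and 0.32 without the replicate 1 libraries, whereas Hspa1a and Hspa1b move from 1.37 and 1.40 to 0.48 and 0.29.

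The genes around the 10 were read from lists of chaperone and stress genes, 155 tested genes in all, none of which was called by edgeR or DESeq2. At an unadjusted edgeR p under 0.05 there were 24 of them, 17 higher and 7 lower in S34F. This is 15.5% of the 155, beside 9.1% of all genes, and the median log2 fold change of the 155 genes was -0.03. The lists were chosen with earlier results of these data known, so the 15.5% is no test of them. Of 5 tested regulators of the heat shock factors, 2 were higher at that level. Hsf1, the main regulator of the response, had 31.8, 32.9 and 32.7 CPM in S34F and 40.9, 26.3 and 31.5 in WT, a log2 fold change of -0.02 ± 0.16 (edgeR adjusted p = 0.975). Hsf2, a related factor, had 25.1, 19.7 and 18.9 CPM in S34F and 18.3, 14.5 and 13.9 in WT (0.45 ± 0.17; edgeR adjusted p = 0.541). Its ranges did not overlap, which was found for 15.6% of all genes. Hsbp1, which binds heat shock factor trimers, had a value of 0.52 ± 0.20 (edgeR adjusted p = 0.543).

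Of 22 Hsp90 co-chaperones, 3 were higher and 0 lower at an unadjusted edgeR p under 0.05. Ptges3, the p23 protein that steadies the closed form of Hsp90, had 414, 324 and 324 CPM in S34F and 282, 199 and 194 CPM in WT, a log2 fold change of 0.66 ± 0.17 (edgeR adjusted p = 0.538; DESeq2 adjusted p = 0.0670). Nudcd2 had 78.2, 77.6 and 65.1 CPM in S34F and 56.6, 54.4 and 50.7 CPM in WT (0.45 ± 0.11; edgeR adjusted p = 0.538; DESeq2 adjusted p = 0.0601). Neither gene overlapped between genotypes, nor did Aarsd1 among the 22, and 15.6% of all genes did not overlap. Ptges3 and Nudcd2 are named because they had the lowest p of the list. Of 14 tested Hsp70 relatives and exchange factors, 1 was higher, Hspa4, an Hsp110 like Hsph1 (0.25 ± 0.09; edgeR adjusted p = 0.545), and the next by p was Hspa2 (-0.33 ± 0.15; adjusted p = 0.552). Of 35 other J proteins, 4 were higher and 1 lower. They were led by Dnaja2, a type I J protein like Dnaja1 (0.39 ± 0.11; edgeR adjusted p = 0.538), and by Hscb, which serves iron-sulphur cluster assembly (-0.36 ± 0.14; adjusted p = 0.548).

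Of 16 mitochondrial chaperones and proteases other than Hspd1 and Hspe1, 1 was higher. This was Hspa9, the mitochondrial Hsp70, with 550, 486 and 481 CPM in S34F and 457, 326 and 340 CPM in WT (0.44 ± 0.15; edgeR adjusted p = 0.538), followed by the matrix protease Lonp1 (0.21 ± 0.09; adjusted p = 0.552). Of 20 genes of the endoplasmic reticulum and its stress response, 2 were higher, the disulphide isomerases Pdia6 (0.46 ± 0.15) and P4hb (0.35 ± 0.15; edgeR adjusted p = 0.538 and 0.548). Of 4 tested small heat shock proteins, Cryab had the lowest p, at 0.239 to 1.52 CPM (1.40 ± 0.54; edgeR adjusted p = 0.545), and Hspb11 was second (0.51 ± 0.27; adjusted p = 0.578). Proteotoxic stress genes went both ways, 3 higher and 4 lower of 18. Ppp1r15a, which reverses the block on translation under stress, had 120, 71.5 and 88.6 CPM in S34F and 130, 130 and 152 CPM in WT (-0.56 ± 0.18), and Nqo1, an oxidative stress enzyme, had -0.53 ± 0.18 (edgeR adjusted p = 0.538 for both). Of 22 immediate early genes, 0 were higher and 2 lower, Junb (-0.32 ± 0.13) and Ier2 (-0.31 ± 0.13; edgeR adjusted p = 0.548 for both), and the median of that list was -0.24.

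**Figure D3:**
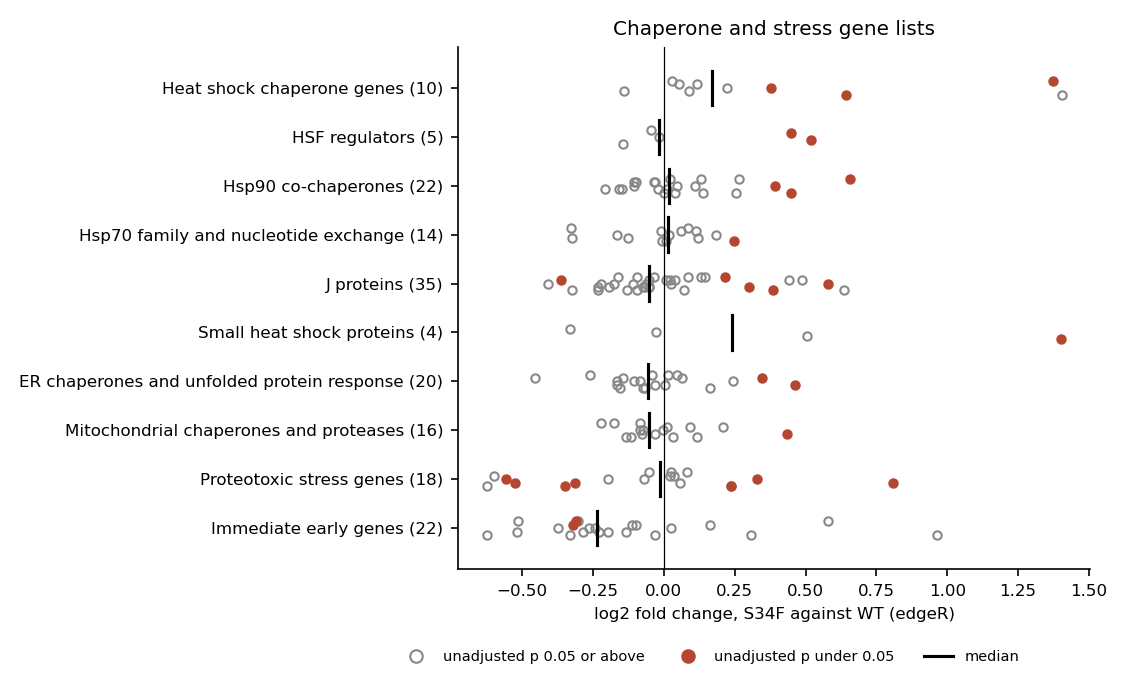
Log2 fold change of every tested gene of the chaperone and stress lists (number tested in parentheses), with filled points for an unadjusted edgeR p under 0.05 and a line at the median of each list. The medians run from -0.24 for the immediate early genes to 0.24 for the 4 small heat shock proteins, and that of the 10 heat shock chaperone genes is 0.17.

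Splicing of the 8 genes with introns was tested in 3 ways. These were the choice of acceptor at a shared donor, the choice of donor at a shared acceptor, and the share of a junction among all junction reads of its gene. Forms of 3 of the genes entered the acceptor test, forms of 6 the donor test and junctions of all 8 the share test. No junction of these genes was called by edgeR or DESeq2 in any of the 3 tests. They held 10 of 29709 acceptor forms (edgeR called 0% of all and DESeq2 1.24%), 17 of 30084 donor forms (0.00997% and 0.774%) and 70 of 121326 junction shares (0.00412% and 0.0808%). The lowest edgeR adjusted p of these genes was 0.593, 0.723 and 0.879 in the 3 tests. An unadjusted p under 0.05 was found for 2 acceptor forms, 2 donor forms and 6 junction shares, beside 7.51%, 6.42% and 5.66% of all features. The forms of a site share their reads, so each pair is a single result.

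In Dnaja1, the libraries differed in the share of donor reads that skip a coding exon of 178 nt, from 40671006 to 40671183 on chromosome 4. Skipping joins the donor before it to the TAG acceptor shown above, in place of the CAG acceptor of the exon, and removes a length that is not a multiple of 3. The skipping junction had 30 of 1570, 3 of 747 and 16 of 973 reads at the donor in S34F, and 31 of 972, 32 of 582 and 30 of 443 in WT. As shares these are 1.91%, 0.402% and 1.64% in S34F and 3.19%, 5.50% and 6.77% in WT, without overlap, which was found for 17% of all acceptor forms. The means were 1.32 ± 0.806% and 5.15 ± 1.82% (SD, n = 3 each; exact permutation p = 0.1, the smallest possible). The log2 odds ratio of skipping was -2.03 ± 0.63 (SE; edgeR unadjusted p = 0.0168, adjusted p = 0.593; DESeq2 adjusted p = 0.190), and it was -2.77 without both replicate 1 libraries (adjusted p = 0.675). Read from the acceptor of the next exon, the same reads gave -1.78 ± 0.60 (edgeR adjusted p = 0.723), and 14.8% of all donor forms did not overlap. Junction reads were also scaled as the gene counts are. The junction into the included exon had 29.5, 16.0 and 19.0 CPM in S34F and 17.1, 7.7 and 4.4 CPM in WT. The skipping junction itself had 0.574, 0.065 and 0.317 CPM in S34F and 0.562, 0.450 and 0.319 CPM in WT, ranges that overlap. The WT libraries with the highest shares of skipping were those with the fewest reads of the gene at this site.

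**Figure D4:**
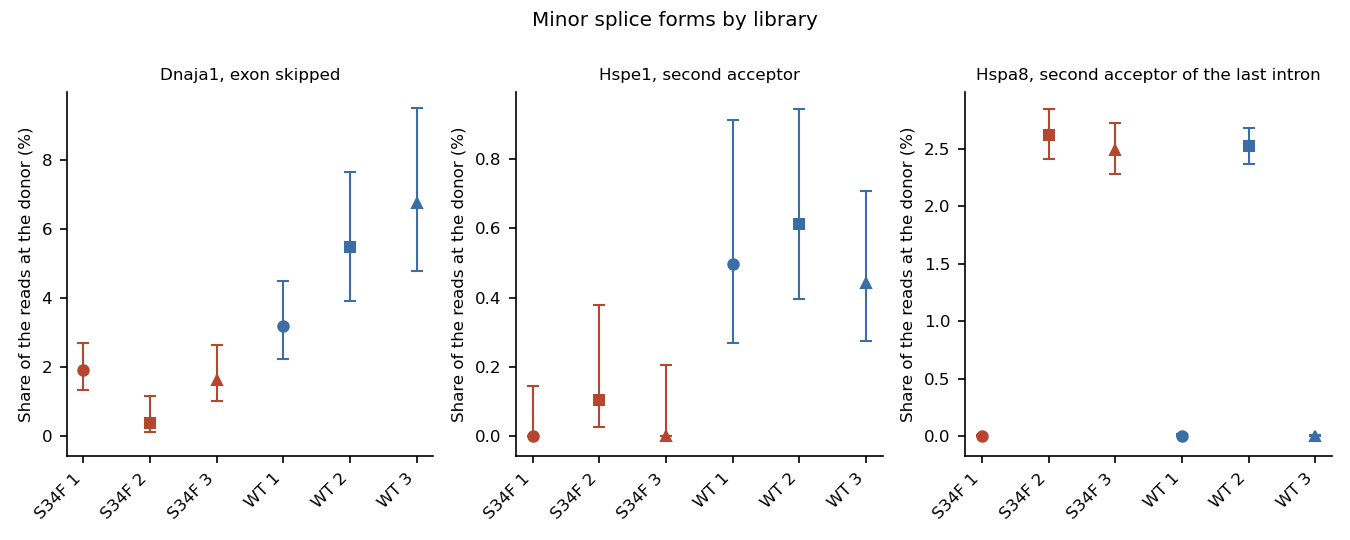
Share of the reads at the donor that use a minor form, in percent, in each library, with the 95% Wilson interval of counting error. The Dnaja1 exon is skipped in 0.402% to 1.91% of reads in S34F and 3.19% to 6.77% in WT, the second Hspe1 acceptor has 0% to 0.104% and 0.441% to 0.612%, and the second Hspa8 acceptor is at 0% in 3 libraries and at 2.49% to 2.62% in 3 others, of both genotypes.

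In Hspe1, the last intron has an unannotated second acceptor 17 nt downstream, inside the coding sequence, preceded by TAG where the usual site has CAG. It had 0, 2 and 0 reads in S34F, of 2667, 1923 and 1875 at the donor, and 10, 20 and 17 in WT, of 2018, 3267 and 3854. This gave shares of 0%, 0.104% and 0% for S34F and 0.496%, 0.612% and 0.441% in WT. A count of 0 allows up to 0.112% in S34F replicate 1 and up to 0.160% in S34F replicate 3, by the limit of 3 reads. The 95% Wilson upper limits, which the plot of minor forms draws, are 0.144% and 0.204%, and all of these limits lie below every WT share. For S34F replicate 2, with 2 reads, the Wilson upper limit is 0.378%. That is above the lower limits of WT replicates 1 and 3 (0.269% and 0.276%) and below that of WT replicate 2 (0.397%). At under 1% of the reads the form did not enter the test as planned. With no minimum share, an alternative chosen after seeing the data, the log2 odds ratio was -3.90 ± 1.04 (SE; edgeR unadjusted p = 0.00879, adjusted p = 0.550; DESeq2 adjusted p = 0.0749). These fits called 0% and 2.24% of 35014 forms, of which 6.99% had an unadjusted edgeR p under 0.05 and 16.6% did not overlap. In the authors' deposited table this junction has a DEXSeq log2 fold change of -4.09 and an adjusted p of 0.0186, the only one of 101 junctions of these genes under 0.05, beside 0.34% of all junctions. The second acceptor held at most 0.612% of the reads at the donor in any library, and the usual acceptor held the rest.

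Hspa8 had the most junction rows after Hsph1, 18, of which 8 held at least 1% of its junction reads by the median library. In WT replicate 3, usual intron 3 counted from the 5′ end was nearly empty and intron 4 was low. Intron 3 (40610707 to 40610821 on chromosome 9) had 8.5 CPM there and 277 to 476 CPM in the other libraries, and intron 4 (40610975 to 40611056) had 38.0 CPM there and 214 to 326 CPM in the others. The other 6 usual introns of WT replicate 3 summed to 2127 CPM, inside the range of the other libraries (1906 to 2496). Of 5005 junctions with at least 1000 reads in each of the other libraries, Hspa8 intron 3 was the only one whose share of its gene in WT replicate 3 was under 0.1 of the median of the others (0.0200%). The log2 ratio of the mean S34F and WT sums over those 6 introns was -0.02, beside 0.09 from the gene counts. WT replicate 3 also had the lowest Hspa8 level in CPM, and the part of introns 3 and 4 in that level was not tested.

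Minor Hspa8 acceptors appeared in some libraries and not in others, in both genotypes. The second acceptor of the last intron, 7 nt downstream of the usual site, had 0, 537 and 488 reads in S34F and 0, 965 and 0 reads in WT, of 19576 to 43745 at the donor. It stood at 2.62% and 2.49% in S34F replicates 2 and 3 and at 2.52% in WT replicate 2, and the 0 counts allow at most 0.0148% by the limit of 3 reads. A junction from an alternative first exon to the acceptor of the first intron (intron 40609704 to 40610000) had 0, 246 and 297 reads in S34F and 285, 0 and 0 in WT. These were 2 of 171 junctions (0.113% of the table) with 0 reads in at least 1 library and 200 or more in another. An unannotated acceptor of the first intron, at 40610015, had 349, 7 and 311 reads in S34F and 1, 573 and 197 in WT. Hspa8 has processed pseudogene copies in the mouse genome, and the labels do not say how reads that match several places were treated.

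**Figure D5:**
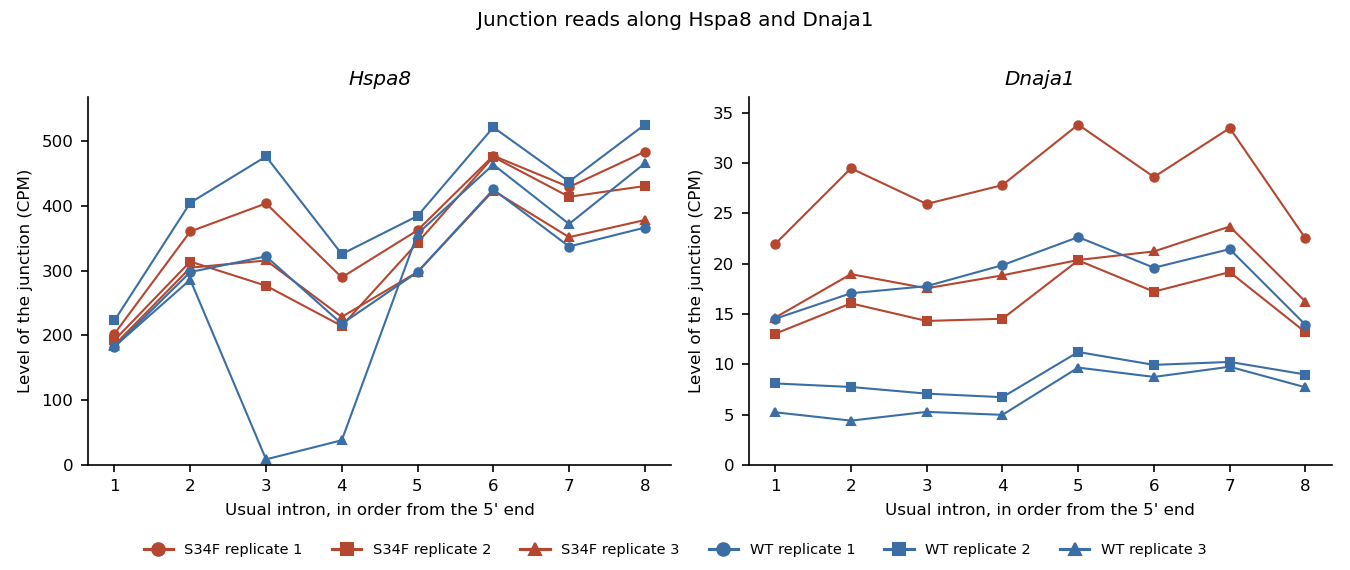
Level in CPM of the junctions of the usual introns of Hspa8 and Dnaja1, in order from the 5′ end, in each library. WT replicate 3 drops to 8.5 and 38.0 CPM at Hspa8 introns 3 and 4, and in Dnaja1 WT replicates 2 and 3 lie below the other libraries at every intron.

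Junction reads per gene count, which set the junction reads of a gene beside all its counted reads, were steady for most of the genes. A read pair can cross several junctions, so this ratio can exceed 1 and is not a spliced fraction. Hspa8 had 1.24 in WT replicate 3 and 1.06 to 1.09 in the other libraries. Dnaja1 had 0.903, 0.827 and 0.855 in S34F and 0.916, 0.599 and 0.612 in WT, so that WT replicates 2 and 3 stood apart from WT replicate 1 and from all S34F libraries. The log2 ratio for Dnaja1 was 0.31 ± 0.15 (SE; edgeR adjusted p = 0.716), and it passed the threshold without WT replicate 1 (0.51, adjusted p = 0.0190) and without both replicate 1 libraries (0.47, adjusted p = 0.0229), in fits that called 18 and 5 of all genes. WT replicate 1 had the highest Dnaja1 ratio of all libraries. The fit without it has Ddx3y counts in S34F replicate 1 and in no WT library, so the genotypes are unbalanced there. The lowest library of Dnaja1 was at 0.654 of the highest, and 11.1% of 10707 genes had a wider range. Summed junction reads alone, an alternative added after seeing the data, gave Dnaja1 a log2 fold change of 0.89, beside 0.64 from the gene counts (edgeR adjusted p = 0.549). WT replicates 2 and 3 were also lowest in the ratio of the first 4 to the last 4 Dnaja1 introns, 0.734 and 0.554, beside 0.829 to 0.892 in the other libraries. Over all genes the median ratio of junction reads to gene counts was 0.778 to 0.790 in every library. The other 7 genes tested, Hspa8 and Hspd1 among them, had log2 ratios from -0.07 to 0.01 (lowest edgeR adjusted p = 0.749), and edgeR called 0% and DESeq2 0.131% of all genes.

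Differences between genotypes in the share of single introns within a gene were small. In Hsp90aa1, the intron from 111929860 to 111930323 on chromosome 12 took 8.72%, 8.93% and 8.91% of junction reads in S34F and 9.44%, 9.75% and 11.03% in WT, and another, from 111931713 to 111931920, took 9.05%, 8.61% and 8.61% against 7.85%, 8.35% and 7.24%. Neither overlapped, with log2 odds ratios of -0.20 ± 0.07 and 0.18 ± 0.07 (edgeR adjusted p = 0.879 for both). In Hsp90ab1 the intron nearest the 5′ end (45708861 to 45710115 on chromosome 17) took 9.94%, 10.3% and 10.3% in S34F and 10.6%, 11.1% and 12.2% in WT (-0.17 ± 0.07; adjusted p = 0.879), and the second by p had 0.10 ± 0.06 (adjusted p = 0.888). In Hsph1 the introns of lowest p had -0.44 ± 0.17 and 0.29 ± 0.13 (edgeR adjusted p = 0.879 for both), the first taking 5.64% to 6.66% in S34F and 6.93% to 9.60% in WT. WT replicate 3, the deepest library, held the most extreme share at each of these 4 introns. In Hspa8 the introns of lowest p had -0.07 ± 0.06 and, for intron 4, 0.71 ± 0.54, the latter resting on WT replicate 3, without which it was -0.08. The introns of lowest p in Hspd1 had 0.22 ± 0.11 and -0.09 ± 0.07, those in Dnajb1 -0.04 ± 0.17 and 0.04 ± 0.17, and those in Hspe1 0.03 ± 0.09 and -0.02 ± 0.13 (edgeR adjusted p from 0.879 to 0.990). Genotypes did not overlap for 12 of the 70 junction shares tested and for 11.3% of all junction shares.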

How the data were processed

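Per the series text and the labels' protocols, ribosomal RNA was depleted, stranded libraries were sequenced as paired reads of 100 bases, and reads were aligned to mm9 with TopHat 2.0.8. The submitters' processing notes also name HTSeq 0.5.4p1 and DESeq2 1.6.1, with no word on strand in the counting. Raw counts per gene and per junction are what the authors deposited. Per the file headers they also deposited a fold change ratio, log2 values, p-values, a DEXSeq test with a score and a mean coverage signal, and FPKM (used here only beside the levels per kb and for the ranges of Hspd1). The genotype came from the titles, since the genotype field reads S34F in all samples.

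Gene counts were tested with edgeR 4.0.16 (TMM, default filter, quasi-likelihood, two-sided, Benjamini-Hochberg over all genes, threshold 0.05) and DESeq2 1.42.0. Junction choices used the same tools on the reads of a form against the rest, with terms for library and form and the genotype interaction tested, at 20 reads per site and library and 1% per form. The code was tested on simulated data. Printed junction positions were moved 1 base inward, where 99.973% of GT-AG introns then matched NCBIM37. Intervals and limits for a count of 0 (3 reads) cover counting error only. The members and lists were chosen with earlier results of these data known. Genes named are the 10 members, their 2 junctions of lowest p, Hsf1, Hsf2, and the 2 of lowest p per list; the junctions described for Hspe1 and the minor ones of Hspa8 were chosen after their values were seen.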

Additional observations from a re-analysis of the deposited data

How the results depend on the processing

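No chaperone gene was called in any edgeR gene fit tried. The labels do not say that a replicate number marks a shared batch, and the values do not settle whether it does. Deviations from group means correlated at 0.253, 0.317 and 0.039 for same-numbered libraries and at -0.367 to 0.142 for the others. WT replicates 1 and 2 correlated best with the same-numbered S34F library, and WT replicate 3 with S34F replicate 2 (0.142). With a replicate block, DESeq2 called 445 genes and 2 of the 10 (Dnaja1, adjusted p = 0.000878, and Hspd1, 0.0345) and edgeR 5 genes and none of the 10. Genes called were 96 by DESeq2, 599 without both replicate 1 libraries and 0 to 1172 with 1 library left out, 1172 being without WT replicate 1. Without WT replicate 1, Ddx3y counts remain in S34F replicate 1 only. Acceptor forms called were 368 by DESeq2, 784 by DESeq2 with no minimum share and 5 with a 5% minimum. Donor forms were 233 and 301 by DESeq2 with and without the minimum, 0 with the replicate block, without a minimum share or without both replicate 1 libraries, and 0 to 5 with 1 library left out. Junction shares were 98 by DESeq2, 0 at a 5% minimum, 2 with the block, 8 without both replicate 1 libraries and 0 to 15 with 1 left out. Ratios of junction reads to gene counts were called for 14 genes by DESeq2, 5 without both replicate 1 libraries and 0 to 18 with 1 left out; of the 10 genes, Dnaja1 was called (1) without WT replicate 1 and without both replicate 1 libraries (1), and 0 otherwise.

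Signs changed for the values that follow, and the cause was not tested. Without both replicate 1 libraries the log2 fold changes were -0.0095 for Hspa8, -0.27 for Hsph1 and -0.00063 for Hspe1, and the log2 odds ratios of the Dnajb1 introns 0.090 and -0.075. On summed junction reads Hsph1 had -0.030. With 1 library left out, the log2 fold changes ran from -0.0031 to 0.13 for Hsp90ab1, from -0.095 to 0.32 for Hspa8 and from -0.15 to 0.17 for Hsph1. The log2 odds ratios of introns ran from -0.076 to 1.21 for Hspa8 intron 4, from -0.11 to 0.060 and from -0.045 to 0.12 in Dnajb1, and from -0.0026 to 0.076 and from -0.17 to 0.069 in Hspe1. The log2 ratios of junction reads to gene counts ran from -0.013 to 0.010 for Hsp90aa1, from -0.10 to 0.016 for Hspa8 and from -0.00030 to 0.024 for Hspd1. The median of the 10 genes was 0.17 with all 6 libraries and ran from 0.11 to 0.29 with 1 library left out. It was 0.10 without Hspa1a and Hspa1b and 0.044 without these and S34F replicate 1. The SD between replicates of the median log2 CPM of the 10 genes was 0.15. That is a spread of levels, so it does not measure whether the median log2 fold change is stable.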
